A study of Mus musculus with 6 samples.

Results

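The genes described here are the 10 that encode the core of the NF-kB system, 10 of the 54532 genes in the deposited table. They were chosen by name, with earlier results of these data known. The 5 subunit genes are Rela, Rel, Relb, Nfkb1 and Nfkb2, and the 5 inhibitor genes are Nfkbia, Nfkbib, Nfkbie, Nfkbiz and Tnfaip3. Their RNA was measured by RNA-seq in 6 libraries of cultured mouse vascular smooth muscle cells (VSMCs), the contractile cells of the vessel wall. The 3 Ad-Con libraries came from cells with the genotype WT that received an adenoviral vector with a control plasmid, and the 3 Ad-PDK4 libraries from cells that received an adenoviral vector with a pyruvate dehydrogenase kinase 4 overexpression plasmid, which is also what their genotype label says. Both groups were thus exposed to an adenovirus. Per the study, such cells were isolated from the abdominal aortas of young adult wild-type mice and serum-starved in culture, and its results describe the sequenced cells as treated with angiotensin II. The labels do not mention angiotensin II. The study calls the 3 libraries of a group biological replicates, and neither it nor the labels say whether these were separate animals or separate cultures, so the p-values measure the spread between these libraries.

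NF-kB is a family of transcription factors that bind DNA as pairs of subunits. In resting cells IkB proteins hold these pairs in the cytoplasm. Signals from cytokines, microbial products and damaged tissue lead IkB kinases to mark the IkB proteins for destruction, the freed subunits enter the nucleus, and chemokine, cytokine and adhesion molecule genes are transcribed. Several of the inhibitors and subunits are themselves known NF-kB target genes, which gives the pathway its feedback. In the vessel wall, NF-kB is known for the inflammatory response of smooth muscle and endothelial cells.

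The gene named on the labels was read first. Pdk4, which encodes a kinase that restrains the entry of pyruvate into mitochondrial oxidation, had 679, 642 and 646 reads in the Ad-Con libraries and 490, 455 and 572 in the Ad-PDK4 libraries. Its level was 10.0 ± 0.469 FPKM (SD, n = 3) in Ad-Con and 7.48 ± 0.162 FPKM (SD, n = 3) in Ad-PDK4, where FPKM is the number of sequenced fragments per kilobase of gene, scaled to a fixed library size. Pdk4 was therefore lower in the libraries labelled as overexpressing it, with a log2 fold change of -0.42 (SE 0.06, adjusted p = 0.0011), and no library of one group reached the range of the other. Every direction below is a direction of the libraries labelled Ad-PDK4 against those labelled Ad-Con. Whether the labels are crossed, and whether RNA from the vector was counted as Pdk4, was not tested, and either would bear on what these directions mean. Of 11 smooth muscle markers, 5 averaged at least 0.5 FPKM (Acta2, Smtn, Lmod1, Cald1 and Tpm2), whereas Myh11, the smooth muscle myosin heavy chain, had 2 to 10 reads per library, Tagln 4 to 20 and Myocd 0 to 5. The 11 together summed to 172 to 173 FPKM in Ad-Con and 135 to 145 FPKM in Ad-PDK4, but they did not move together. Acta2 fell from 78.0 to 36.2 FPKM (log2 fold change -1.11) and Tpm2 from 27.8 to 22.1 FPKM, whereas Cald1 rose from 56.0 to 71.9 FPKM (log2 fold change 0.36). Smtn (8.32 and 8.44 FPKM) and Lmod1 (0.720 and 0.570 FPKM) overlapped between the groups, as did Tagln, Myh11 and Myocd. Mylk (0.756 FPKM in Ad-Con and 0.123 in Ad-PDK4), Cnn1 (0.466 and 0.247) and Des (0.186 and 0.0468) had lower means in Ad-PDK4. Averaging under 0.5 FPKM, Mylk, Cnn1 and Des were not tested. These markers were named after their values had been seen, and their part in the results below was not tested. Reads assigned to genes numbered 17588942 to 21861872 per library, as recovered from the FPKM and the gene lengths.

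All 10 genes were higher in the Ad-PDK4 libraries, and for each of them every Ad-PDK4 library lay above every Ad-Con library. By limma, each passed an adjusted p of 0.05. Of the 13423 genes tested, 21.8% were higher at that limit, 20.8% were lower, and 27.8% had every Ad-PDK4 library above every Ad-Con library. The fold changes were unequal. The ubiquitin-editing enzyme gene Tnfaip3 reached 4.69 times its Ad-Con mean and the nuclear IkB gene Nfkbiz 3.24 times, while Rela, the most abundant of the 10, reached 1.13 times. Of the 10 genes, 3 (Tnfaip3, Nfkbiz and Nfkbie) also passed a 2-fold limit, which 3.95% of all genes tested did in that direction.

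Because several of these genes are known to carry binding sites for the factor they form or restrain, the promoter windows of 4 of them are shown together with that of Rela. Each window is taken from RefSeq (GRCm38.p6) and runs from 250 bases before an annotated start site to 50 bases after it, 5′ to 3′ on the gene's strand. Capitals mark the letters GGGNNNTTCC or, for the other strand, GGAANNNCCC, a common form of the kB motif, where N is any base.
Tnfaip3 (chr10:19015361-19015660, minus strand): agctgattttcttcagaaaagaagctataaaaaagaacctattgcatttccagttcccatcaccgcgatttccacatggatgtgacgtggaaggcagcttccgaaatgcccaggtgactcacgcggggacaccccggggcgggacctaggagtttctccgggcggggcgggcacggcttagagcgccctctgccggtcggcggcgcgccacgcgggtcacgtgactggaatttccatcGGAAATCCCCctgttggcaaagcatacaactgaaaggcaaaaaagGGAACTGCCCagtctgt
Nfkbia (chr12:55492598-55492897, minus strand): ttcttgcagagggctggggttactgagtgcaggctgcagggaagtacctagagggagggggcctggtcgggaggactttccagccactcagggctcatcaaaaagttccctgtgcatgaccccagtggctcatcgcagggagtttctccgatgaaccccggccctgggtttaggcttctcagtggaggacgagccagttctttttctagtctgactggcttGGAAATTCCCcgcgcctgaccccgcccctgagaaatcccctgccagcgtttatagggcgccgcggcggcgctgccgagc
Nfkbie (chr17:45555450-45555749, plus strand): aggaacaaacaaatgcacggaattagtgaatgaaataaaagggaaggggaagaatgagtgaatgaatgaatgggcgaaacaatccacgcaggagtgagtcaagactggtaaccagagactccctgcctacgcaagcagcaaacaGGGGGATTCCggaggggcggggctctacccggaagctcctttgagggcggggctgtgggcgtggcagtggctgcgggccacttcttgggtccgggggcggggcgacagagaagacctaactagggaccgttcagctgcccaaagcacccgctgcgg
Nfkb2 (chr19:46304487-46304786, plus strand): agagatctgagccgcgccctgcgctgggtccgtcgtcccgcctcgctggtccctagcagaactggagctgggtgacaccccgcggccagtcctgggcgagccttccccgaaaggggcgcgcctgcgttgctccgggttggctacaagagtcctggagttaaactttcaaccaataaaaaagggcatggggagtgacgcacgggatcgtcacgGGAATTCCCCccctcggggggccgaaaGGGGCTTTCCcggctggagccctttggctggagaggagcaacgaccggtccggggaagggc
Rela (chr19:5637291-5637590, plus strand): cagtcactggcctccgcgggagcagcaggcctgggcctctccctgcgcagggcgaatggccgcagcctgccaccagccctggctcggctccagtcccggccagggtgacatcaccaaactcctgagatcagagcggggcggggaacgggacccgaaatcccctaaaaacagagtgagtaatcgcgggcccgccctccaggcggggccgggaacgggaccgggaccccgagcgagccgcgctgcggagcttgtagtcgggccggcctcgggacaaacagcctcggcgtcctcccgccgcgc

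The Tnfaip3 window held 2 matches, the first starting 12 bases before the start site and the second 33 bases after it. This RefSeq start lies inside Tnfaip3 as the deposited table delimits the gene. Nfkbia held 1 match, 29 bases before its start site, and Nfkbie held 1 match, 106 bases before. The first of the 3 Nfkb2 windows held 2 matches, 38 and 11 bases before the start site. In the Rela window the letters did not occur. RefSeq gave windows for 7 of the 10 genes, 10 windows in all because Nfkb2 and Tnfaip3 have more than 1 start site, and 8 of these 10 held the motif. The other two Nfkb2 windows overlap and share a genomic site, which is the only match in the last of them. Besides Rela, the window without it was that of Nfkbib, a gene with the log2 fold change of Nfkb2 (0.62 for both). The Nfkbib window (chr7:28766595-28766894) lies wholly inside the gene as the deposited table delimits it, and the RefSeq start of Rela likewise lies inside its gene. The Rel window held GGAAATCCCC 91 bases before the start site. Relb, Nfkb1 and Nfkbiz were not in the promoter table. Among all 32851 windows of the same length, 5.56% held the motif and 0.201% held it at least 2 times. Counted by gene rather than by window, 7.4% of the tested genes with a window held it in any of their windows. By gene, the share was 11.34% of the 344 that were higher and at least 2-fold and 6.48% of the 216 that were lower and at least 2-fold. The 344 include Tnfaip3 and Nfkbie, and the difference between these shares was not tested. A match is a description of letters and does not show that a site is bound.

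The subunit genes fall into those whose proteins carry a transactivation domain (Rela, Rel and Relb) and those made as longer precursors that are processed into DNA-binding partners (Nfkb1 and Nfkb2). Rela lies on chr19:5637483-5648130 (GRCm38, plus strand) and encodes the main activating subunit of the canonical pathway. Its level was 52.5, 48.9 and 52.7 FPKM in Ad-Con and 56.6, 60.4 and 56.7 FPKM in Ad-PDK4. The groups did not overlap, but the gap between the highest Ad-Con and the lowest Ad-PDK4 library was only about as wide as the range within a group. The log2 fold change was 0.17 (SE 0.05, 95% interval 0.05 to 0.29, adjusted p = 0.031). This call was lost under 9 of 15 alternatives, over which the log2 fold change ran from 0.11 to 0.21 and the adjusted p from 0.015 to 0.13. It was lost when Ad-Con 1 (adjusted p = 0.059), Ad-Con 2 (0.1), Ad-Con 3 (0.059), Ad-PDK4 1 (0.066) or Ad-PDK4 2 (0.064) was left out, and with the replicate number as a block (0.065).

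Rel, on chr11:23736847-23770970 (minus strand), encodes c-Rel, a subunit best known from lymphoid cells. It was the scarcest of the 10, at 1.51, 1.52 and 1.20 FPKM in Ad-Con and 1.93, 2.17 and 2.32 FPKM in Ad-PDK4, from 162 to 382 reads per library. All Ad-PDK4 libraries were above all Ad-Con libraries, with a log2 fold change of 0.57 (SE 0.14, 95% interval 0.25 to 0.90, adjusted p = 0.012), the widest interval among the 10. Lymphocyte markers were near the floor in both groups. Of 7, none averaged 0.5 FPKM, and Cd3e, Cd3g, Ms4a1, Cd8a and Nkg7 had no read in any library.

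Relb, on chr7:19606217-19629438 (minus strand), encodes the activating subunit of the non-canonical branch, where it pairs with the product of Nfkb2. Its level was 5.58, 5.95 and 5.62 FPKM in Ad-Con and 10.5, 12.4 and 11.6 FPKM in Ad-PDK4. It rose the most of the 5 subunit genes in these libraries, from a mean of 5.72 ± 0.204 to 11.5 ± 0.986 FPKM (SD, n = 3 each), and the lowest Ad-PDK4 library was far above the highest Ad-Con library. The log2 fold change was 0.99 (SE 0.08, 95% interval 0.82 to 1.17, adjusted p = 4.2e-05). The interval spans the 2-fold limit, so whether Relb counts among the genes past it depends on the setting, over which the log2 fold change ran from 0.89 to 1.06.

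The precursor genes rose by similar amounts. Nfkb1, on chr3:135584655-135691547 (minus strand), encodes the precursor of the partner of Rela in the canonical pathway. Its level was 4.95, 5.27 and 5.09 FPKM in Ad-Con and 7.91, 8.24 and 8.52 FPKM in Ad-PDK4, with a log2 fold change of 0.68 (SE 0.06, 95% interval 0.53 to 0.83, adjusted p = 0.00012). Nfkb2, on chr19:46304737-46312090 (plus strand), encodes a precursor that itself acts like an IkB protein until it is processed. It went from 21.2, 23.8 and 20.8 FPKM in Ad-Con to 32.2, 35.6 and 33.2 FPKM in Ad-PDK4, with a log2 fold change of 0.62 (SE 0.07, 95% interval 0.46 to 0.77, adjusted p = 0.00026). In neither gene did the groups overlap, and the spread within a group was small beside the gap between them. Nfkb2 shares 4 bases with Psd on the opposite strand, which had 145 to 306 reads, and Nfkb1 contains the unclassified gene Gm43430, which had 0 to 2 reads.

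The inhibitors act at different places. Products of Nfkbia, Nfkbib and Nfkbie are the classical IkB proteins that hold subunits in the cytoplasm. Nfkbia, on chr12:55489410-55492647 (minus strand), encodes IkB-alpha, whose resynthesis after activation ends a pulse of nuclear NF-kB. Its level was 18.4, 22.4 and 21.1 FPKM in Ad-Con and 35.1, 37.4 and 42.2 FPKM in Ad-PDK4. The Ad-PDK4 libraries were all well above the Ad-Con libraries, with a log2 fold change of 0.89 (SE 0.09, 95% interval 0.67 to 1.10, adjusted p = 0.00019). Nfkbie, on chr17:45555703-45563169 (plus strand), encodes IkB-epsilon. It had 3.02, 3.67 and 2.81 FPKM in Ad-Con and 6.68, 6.76 and 6.88 FPKM in Ad-PDK4, where the libraries lay closer together than in Ad-Con. Its log2 fold change was 1.08 (SE 0.10, 95% interval 0.84 to 1.32, adjusted p = 0.00012).

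Nfkbib, on chr7:28758251-28767512 (minus strand), encodes IkB-beta, which is degraded more slowly and is not known as a strong feedback gene. Its level was 12.2, 12.6 and 14.1 FPKM in Ad-Con and 20.9, 19.4 and 19.5 FPKM in Ad-PDK4. The groups did not overlap, and the log2 fold change was 0.62 (SE 0.07, 95% interval 0.46 to 0.78, adjusted p = 0.00027), within the interval of Nfkb1 and of Nfkb2. Nfkbib shares 778 bases with Sirt2 on the opposite strand, and the sources do not say whether counting used strand. Sirt2 had 3513, 3161 and 2943 reads in Ad-Con and 2535, 2528 and 3050 in Ad-PDK4, while Nfkbib had 478 to 553 and 738 to 932. Reads that could belong to either gene were not separated here.

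Nfkbiz, on chr16:55811375-55838899 (minus strand), encodes IkB-zeta, a nuclear member of the IkB family that is induced on activation and modifies which target genes are transcribed. Its level was 4.31, 3.86 and 4.54 FPKM in Ad-Con and 13.1, 12.3 and 15.9 FPKM in Ad-PDK4. Even the lowest Ad-PDK4 library was far above every Ad-Con library, and the Ad-PDK4 libraries differed more among themselves than the Ad-Con libraries did. The log2 fold change was 1.67 (SE 0.11, 95% interval 1.42 to 1.92, adjusted p = 1.5e-05). Tnfaip3, on chr10:19000910-19015657 (minus strand), encodes an enzyme that edits ubiquitin chains on signalling proteins upstream of the IkB kinases. It had 1.98, 1.84 and 1.75 FPKM in Ad-Con and 8.21, 8.67 and 9.23 FPKM in Ad-PDK4, with 229 to 291 reads in the first group and 1080 to 1473 in the second. The groups were widely separated, with a log2 fold change of 2.17 (SE 0.08, 95% interval 1.98 to 2.36, adjusted p = 1e-06). Of the 13423 genes tested, 209 had a larger log2 fold change than Tnfaip3, 310 a larger one than Nfkbiz and 4204 a larger one than Rela.

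**Figure D1:**
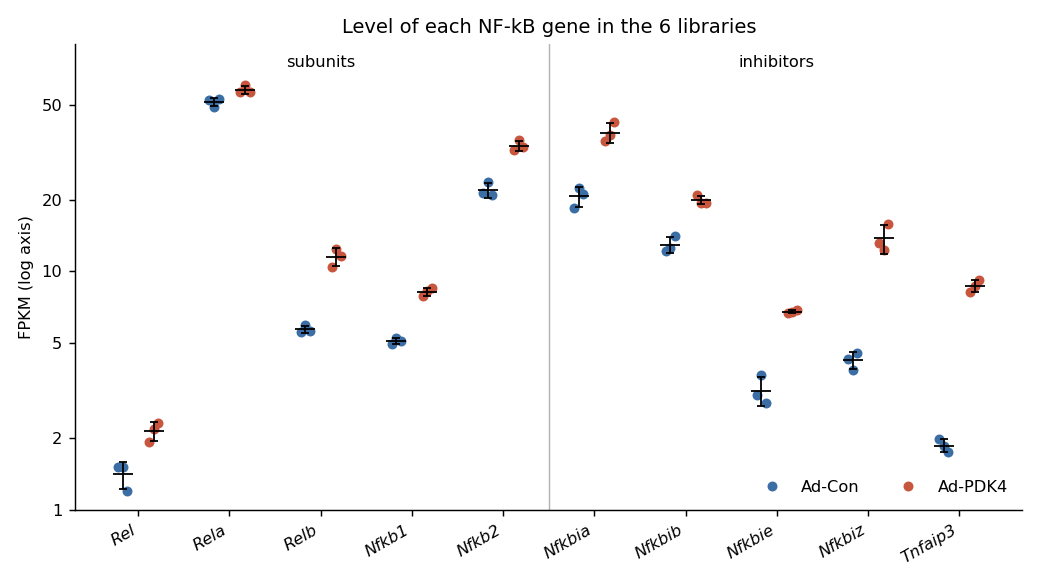
Level of each of the 10 genes in FPKM on a log axis, with a point for each library (blue for Ad-Con, red for Ad-PDK4) and a bar with whiskers for the mean ± SD of the 3 libraries of a group. The groups are separated for all 10 genes, by least for Rela (51.4 against 57.9 FPKM) and by most for Tnfaip3 (1.86 against 8.71 FPKM).

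The 10 genes were also ordered by fold change, and the intervals of neighbours were set side by side. Overlap of intervals is not a test of a difference between genes. From Rela through Rel, Nfkb2, Nfkbib, Nfkb1, Nfkbia and Relb to Nfkbie, the 95% intervals of neighbours overlapped. The interval of Rela (0.05 to 0.29) reached only that of Rel, the widest, and lay wholly below those of all the other genes. Nfkbiz lay above Nfkbie and Tnfaip3 above Nfkbiz with no overlap of the intervals. The median log2 fold change was 0.617 over the 5 subunit genes and 1.083 over the 5 inhibitor genes, with 0.782 over all 10 and -0.003 over all genes tested. As the libraries are bulk RNA, more RNA per cell and more cells that express a gene cannot be told apart. Markers of other cell types were mostly at or near the floor. Ptprc, Tyrobp, C1qa and Itgam had no read in any library, and the 9 macrophage markers together summed to 15.0 to 18.0 FPKM in Ad-Con and 6.07 to 7.57 FPKM in Ad-PDK4, mostly from Cd68 and Lyz2. The lower sum came from Cd68, which fell from 14.2 to 4.24 FPKM. Lyz2 had 1.51 and 1.98 FPKM and Csf1r 0.258 and 0.640 FPKM, both without overlap between the groups, as had 27.8% of all genes tested in that direction. By limma Lyz2 did not pass (adjusted p = 0.079), and Csf1r, with 11 to 62 reads, was under the limit for testing. These 3 were named after their values had been seen. Among the 7 endothelial markers only Kdr averaged at least 0.5 FPKM, Tie1 and Emcn had no read, and their sum was 0.617 to 0.798 FPKM in Ad-Con and 0.885 to 1.18 FPKM in Ad-PDK4. The 7 lymphocyte markers summed to 0.0459 to 0.279 and 0.0535 to 0.185 FPKM.

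**Figure D2:**
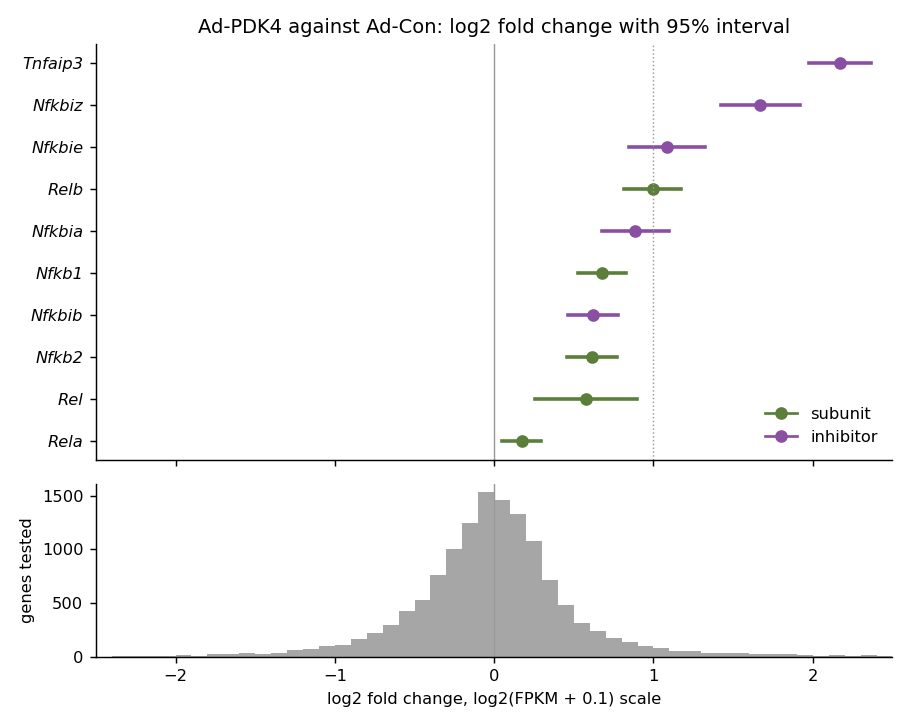
Top: log2 fold change of Ad-PDK4 against Ad-Con on the log2(FPKM + 0.1) scale with its 95% interval, subunit genes in green and inhibitor genes in purple, with the dotted line at 2-fold. Bottom: number of genes tested in each bin of the same axis, without those beyond its ends. All 10 intervals lie above 0, and those of Nfkbiz and Tnfaip3 lie wholly above the 2-fold line.

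Levels can be set side by side because FPKM is per kilobase. In Ad-Con the order was Rela (51.4 FPKM), Nfkb2 (21.9), Nfkbia (20.6), Nfkbib (12.9), Relb (5.72), Nfkb1 (5.11), Nfkbiz (4.24), Nfkbie (3.16), Tnfaip3 (1.86) and Rel (1.41). Only Nfkb2 and Nfkbia overlapped among neighbours in that order. In Ad-PDK4 the order was Rela (57.9 FPKM), Nfkbia (38.2), Nfkb2 (33.7), Nfkbib (19.9), Nfkbiz (13.7), Relb (11.5), Tnfaip3 (8.71), Nfkb1 (8.23), Nfkbie (6.77) and Rel (2.14). There the neighbours Nfkbia and Nfkb2, Nfkbiz and Relb, and Tnfaip3 and Nfkb1 had overlapping ranges. Nfkbiz and Tnfaip3 each stood 2 places higher than in Ad-Con, and Rela and Rel stayed first and last. The scale bears on this order, above all for Nfkb1, for which the authors used a gene length of 12061 bases while its principal transcript has 4117. Scaled by the principal transcript, Nfkb1 was at 15.0 FPKM in Ad-Con and 24.1 FPKM in Ad-PDK4 and stood above Nfkbib and below Nfkb2 and Nfkbia in both groups. On that scale Nfkbiz held the same place in both groups, and Tnfaip3 stood 1 place higher in Ad-PDK4.

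Rela had the smallest fold change, so the make-up of the subunit RNA differed between the groups, with a lower share of Rela in Ad-PDK4. Rela made up 61.2, 57.3 and 61.7% of the summed FPKM of the 5 subunit genes in Ad-Con and 51.9, 50.8 and 50.5% in Ad-PDK4, or 60.1 ± 2.42% against 51.0 ± 0.721% (SD, n = 3 each). No Ad-PDK4 library reached the lowest Ad-Con library. The share of Relb was 6.68 ± 0.249% in Ad-Con and 10.1 ± 0.475% in Ad-PDK4, and that of Nfkb2 was 25.7 ± 1.88% and 29.7 ± 0.25%. On the scale of the principal transcripts the share of Rela was lower in both groups, at 51.0% in Ad-Con and 41.5% in Ad-PDK4, and the difference between the groups had the same direction. The 5 subunit genes together summed to 85.5 ± 0.216 FPKM in Ad-Con and 113 ± 4.91 FPKM in Ad-PDK4. The 3 classical IkB genes summed to 36.7 ± 2.69 and 64.9 ± 3.15 FPKM. Their sum over the subunit sum was 0.392, 0.452 and 0.444 in Ad-Con and 0.574, 0.535 and 0.610 in Ad-PDK4. This ratio was higher in every Ad-PDK4 library, but Rela, which rose least, is the largest part of the subunit sum. The ratio does not show how IkB RNA stood against the other subunits. Singly, the IkB genes had log2 fold changes of 0.89 (Nfkbia), 0.62 (Nfkbib) and 1.08 (Nfkbie). The subunits other than Rela had 0.57 (Rel), 0.99 (Relb), 0.68 (Nfkb1) and 0.62 (Nfkb2). The shares and ratios are of RNA and say nothing of the proteins, whose levels are also set by degradation.

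The same comparison was made gene by gene as the level over that of Rela in the same library. The 9 ratios were all higher in Ad-PDK4 with no overlap between groups. Rela had the smallest fold change of all these genes, so the direction of the 9 differences followed from that choice of denominator. Differences of the log2 ratio were smallest for Rel (0.44), Nfkb2 (0.45), Nfkbib (0.45) and Nfkb1 (0.52), intermediate for Nfkbia (0.72), Relb (0.83) and Nfkbie (0.93), and largest for Nfkbiz (1.52) and Tnfaip3 (2.06). An exact two-sided permutation test gave p = 0.1 for each of the 9, which is the smallest p that 3 libraries against 3 allow, and 0.1 after Benjamini-Hochberg adjustment, so this test cannot pass 0.05. A ratio cancels any scaling of a whole library. Tnfaip3 over Rela went from 0.0362 ± 0.0026 to 0.15 ± 0.0106, and Nfkbia over Rela from 0.403 ± 0.0534 to 0.661 ± 0.0715 (SD, n = 3 each).

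**Figure D3:**
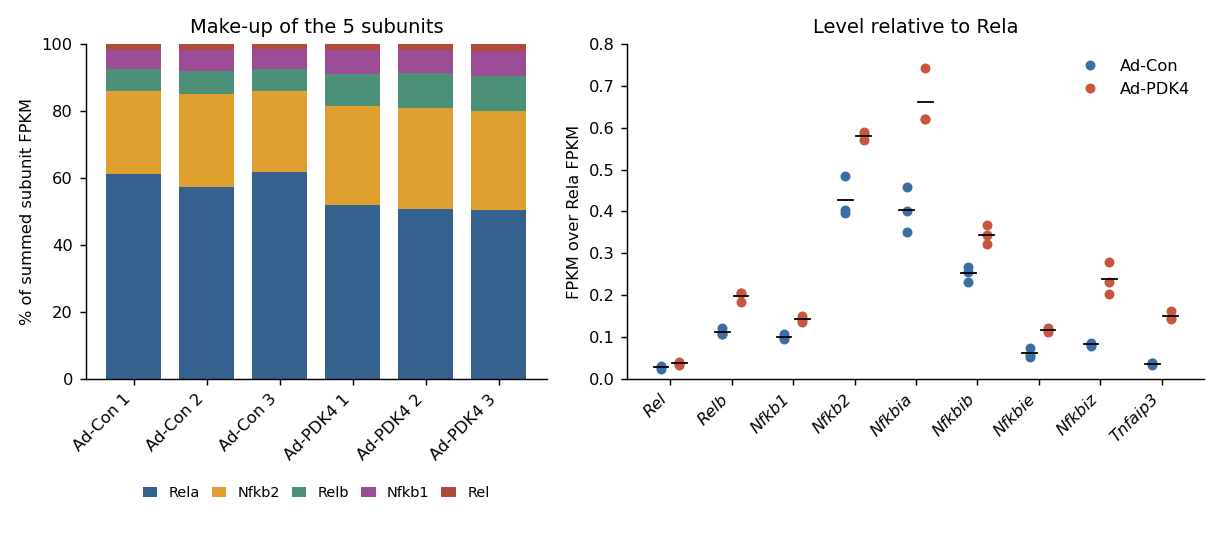
Left: share of each subunit gene in the summed FPKM of the 5 subunit genes, in % for each library. Right: FPKM of the other 9 genes divided by the FPKM of Rela in the same library, with a point for each library and a line for the group mean. Rela makes up 57.3 to 61.7% in the Ad-Con libraries and 50.5 to 51.9% in the Ad-PDK4 libraries. All 9 ratios are higher in Ad-PDK4, as Rela has the smallest fold change of these genes.

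The other genes of the pathway were read from 6 lists of 90 genes, which were chosen with earlier results of these data known. Of the 76 genes tested, 42 were higher, 4 were lower and 30 passed in neither direction, with a median log2 fold change of 0.269. Among all genes tested, 21.8% were higher, 20.8% were lower and 3.95% were higher and at least 2-fold. The 5 lists of signalling genes, without the targets, held 54 tested genes, of which 21 were higher, 4 lower and 29 neither, with a median of 0.165. The same median was 0.782 over the 10 genes described above and -0.003 over all genes tested. In each list the gene called with the greatest rise and that called with the greatest fall are named.

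Among the atypical IkB proteins and nuclear cofactors 1 of 6 tested genes was higher and 1 was lower, near the shares over all genes tested. Bcl3, a nuclear IkB protein that binds the products of Nfkb1 and Nfkb2, had 4.01, 4.30 and 3.65 FPKM in Ad-Con and 15.3, 17.7 and 16.3 FPKM in Ad-PDK4. It rose with a log2 fold change of 2.01 (SE 0.08, adjusted p = 1.5e-06), close to that of Tnfaip3. Nkiras2, a small GTPase-like protein that slows the degradation of IkB proteins, fell from 17.6 ± 0.812 to 11.9 ± 1.73 FPKM, with a log2 fold change of -0.56 (SE 0.10, adjusted p = 0.0028). Nfkbid, a further nuclear IkB gene, was under the limit for testing, with 8 to 12 reads in Ad-Con and 11 to 20 in Ad-PDK4.

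Of the 7 IkB kinase genes and their adaptors, 5 were higher and 1 was lower. Ikbke, an IkB kinase-related enzyme that also acts in interferon induction, rose from 3.66 ± 0.0658 to 5.97 ± 0.253 FPKM, with a log2 fold change of 0.69 (SE 0.07, adjusted p = 0.00017). Ikbkg, the regulatory subunit of the canonical kinase, went from 27.1 ± 1.32 to 23.5 ± 0.308 FPKM (log2 fold change -0.20, SE 0.05, adjusted p = 0.018). This call was lost under 4 of 15 alternatives. They were leaving out Ad-Con 1 (adjusted p = 0.072), Ad-Con 3 (0.065) or Ad-PDK4 1 (0.064), and rescaling to TPM (0.053). Chuk and Ikbkb, the catalytic kinases, were named after their values had been seen. Chuk had a log2 fold change of 0.43 (adjusted p = 0.0054) and Ikbkb one of 0.11 (adjusted p = 0.36), and the difference between them was not tested.

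In the receptor-proximal list 8 of 22 tested genes were higher, 2 were lower and 12 were neither. Map3k8, a kinase held by the Nfkb1 precursor, rose from 1.38 ± 0.157 to 2.60 ± 0.267 FPKM, with a log2 fold change of 0.86 (SE 0.13, adjusted p = 0.0013). Traf5, an adaptor of TNF receptor family members, had 2.80 ± 0.137 and 2.25 ± 0.217 FPKM (log2 fold change -0.31, SE 0.10, adjusted p = 0.046), and this call was lost under 9 of 14 alternatives. They included leaving out Ad-Con 1 (adjusted p = 0.12), Ad-Con 2 (0.063), Ad-Con 3 (0.13), Ad-PDK4 1 (0.12) or Ad-PDK4 3 (0.12), and the replicate block (0.09). Among the deubiquitinases and other brakes, 5 of 11 were higher and none of the 11 was lower at the limit. Zc3h12a, a nuclease that degrades the mRNA of inflammatory genes, rose from 1.67 ± 0.273 to 6.27 ± 1.03 FPKM, with a log2 fold change of 1.85 (SE 0.15, adjusted p = 5.4e-05). The list for turnover of IkB and processing of precursors had 2 of 8 higher and 6 neither, the former near the 21.8% of all genes tested. Rbx1, the RING subunit of cullin ubiquitin ligases, rose from 23.2 ± 0.725 to 28.1 ± 0.579 FPKM, with a log2 fold change of 0.27 (SE 0.05, adjusted p = 0.003).

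Targets known to be transcribed through NF-kB had the largest median of the 6 lists. Whether NF-kB or another factor transcribed them in these cells was not tested. Of 33 genes 22 were tested, 21 of these were higher, 15 of them at least 2-fold, and 1 was neither, with a median log2 fold change of 2.166. Among all genes tested, 21.8% were higher and 3.95% also at least 2-fold. Some of the 22 had an Ad-Con mean below 0.5 FPKM and were tested only because of their level in Ad-PDK4. Restricted to the 16 whose Ad-Con mean reached 0.5 FPKM, 15 were higher and the median was 1.308. Ccl5, a chemokine for T cells and monocytes, had 0.614, 0.534 and 1.15 FPKM in Ad-Con and 626, 577 and 602 FPKM in Ad-PDK4, from 9 to 20 reads against 9687 or more. Its log2 fold change of 9.51 (SE 0.26, adjusted p = 4.7e-06) depends on the pseudocount at so low an Ad-Con level. The 11 targets under the limit for testing included Cxcl2, with no read in Ad-Con and 34, 22 and 43 in Ad-PDK4, and Il1b, with no read in any library. Tnf, whose product is a classical NF-kB activator, had 0 reads in 5 libraries and 2 in Ad-PDK4 3. These 3 and Nfkbid were named after their values had been seen.

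**Figure D4:**
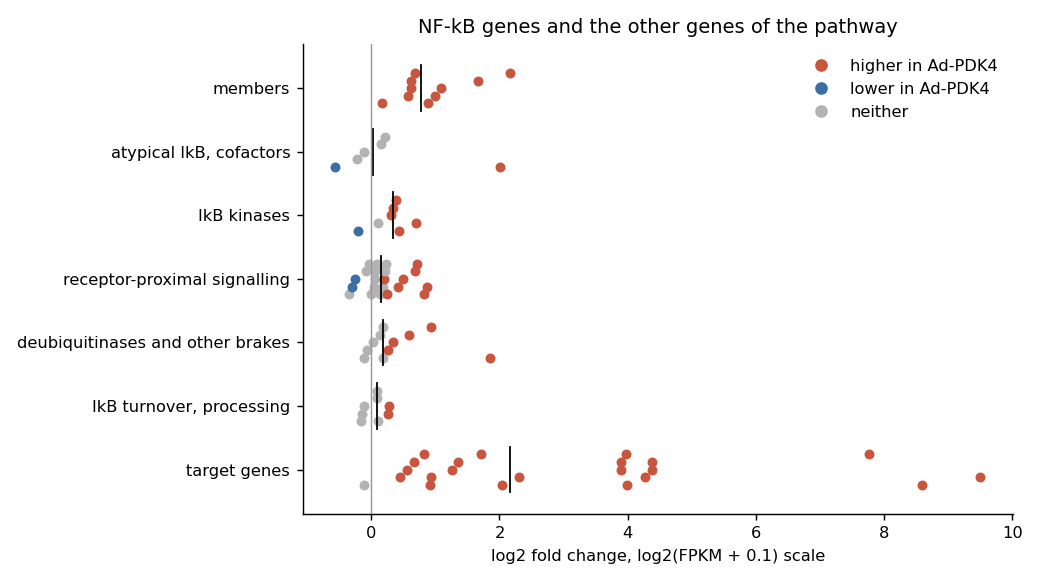
Log2 fold change of Ad-PDK4 against Ad-Con for each tested gene of the 10 NF-kB genes (members) and of the 6 lists of other pathway genes, in red if higher, blue if lower and grey if neither at an adjusted p of 0.05, with a black line at the median of each row. Of the 54 signalling genes 21 are higher, 4 lower and 29 neither, with a median of 0.165. The 22 target genes reach the largest values, and some of them were tested only because of their level in Ad-PDK4.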

How the data were processed

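The deposited table held FPKM per gene and library, which the authors computed, and a gene length. Per the submitters' processing notes, CASAVA 1.8, fastp, HISAT2 2.0.5, featureCounts 1.5.0-p3 and DESeq2 1.20.0 were used. The notes name GRCm39, but 98.3% of the 54495 identifiers matched to GENCODE M21 had its GRCm38 coordinates, so GRCm38 is used here. Strand setting and annotation release are not given in the sources used here. The labels name a SMARTER kit and the methods a NEBNext kit.

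FPKM times length gave whole reads for 100% of values (tolerance 0.01 reads), already scaled between libraries by median-of-ratios size factors. Since FPKM are not counts, log2(FPKM + 0.1) was tested with limma 3.58.1 in R 4.3.3 (trend and robust moderation, no covariates), with Benjamini-Hochberg adjustment over the 13423 genes with a mean of at least 0.5 FPKM. Fold changes on this scale understate those of low genes. Calls were made at an adjusted p below 0.05. The fit was tested on simulated data. The groups came from the treatment labels and the replicate numbers from the titles. The same-number libraries of the 2 groups did not deviate together (correlations of -0.046, -0.031 and -0.001). Of the 15 alternatives, limma-voom on the recovered reads called 3221 genes higher and 3138 lower. The 10 genes and all lists were chosen with earlier results of these data known. Named from each pathway list were the genes with the greatest called rise and fall at a mean of at least 1 FPKM. From the lymphocyte marker list, 1 gene is not reported here.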

Additional observations from a re-analysis of the deposited data

How the results depend on the processing

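Of the 10 genes, 9 remained higher at an adjusted p below 0.05 under all alternatives that gave them a value, and Rela did not, as described above. With a minimum mean of 5 FPKM, Rel and Nfkbie were not tested and 8 of 8 were called, and the number of all genes that were higher and at least 2-fold was 258 in place of 530, since fewer genes were tested. Of the 10, 2 to 4 passed the 2-fold limit, since Relb lies at it and Nfkbie did not pass it with a pseudocount of 1 (log2 fold change 0.91). Pathway genes called lower numbered 4, but 2 after rescaling to TPM and 2 to 4 when 1 library was left out. The cause was not tested. With the replicate number as a block, 9 of the 10 genes, 2759 genes in all and 43 pathway genes were higher and 2626 genes in all and 3 pathway genes were lower. That fit changed the calls of Rela and Traf5 and of no other gene named from the tests in the text. The labels do not say that equal numbers share a culture. Between 44.7% (quantile normalization) and 58.0% (TPM) of all calls were higher, against 51.1%. Depth limits Nfkbie and Rel most, with 155 and 162 reads in their lowest libraries.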
